A study of Mus musculus with 6 samples.

Results

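The exonic regions outside promoters were the open chromatin regions that overlap an exon but no promoter in the deposited annotation of an ATAC-seq study of mouse nephron progenitor cells. They were taken as the distinct regions with an exon mark and an empty promoter entry, with chromosomes X and Y left out, and no accessibility value was used to choose them. There were 2427 such regions among 43523 distinct regions, or 5.58%, and a further 39 on X and Y were left out. ATAC-seq (assay for transposase-accessible chromatin) counts the places where the Tn5 transposase can cut DNA in nuclei, so that a high count marks open chromatin. The cells came from CD1 mice, with no genotype or agent that separates the groups, either at the embryonic stage E14.5, in midgestation, or on the day of birth (P0, postnatal day 0). Each of the 3 libraries per stage was made from the pooled kidneys of a separate litter, by digestion of the outer kidney and positive selection with magnetic beads carrying antibodies to Itga8, an integrin of the progenitor surface. A library therefore averages over litter mates and over whatever other cells the beads retained.

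Nephron progenitors form a cap around each tip of the branching ureteric bud and either renew themselves or become the epithelium of the nephron, and the pool is used up within days after birth. Open chromatin at exons is less common than at promoters or introns. It can reflect an enhancer that lies within coding sequence, an alternative gene start, or the last exon and its flank, and an enhancer inside a gene need not act on that gene. Gene names below therefore say where a region lies, not which gene it controls.

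The sequence of the exonic regions themselves was not read here, so the windows shown are the 250 bases before a RefSeq gene start (GRCm38.p6), 5′ to 3′ on the strand of the gene. Capitals mark the motif known as the GC box, which reads GGGCGG, the box named CCAAT after its letters, and the box of the core promoter that reads TATAAA. Each was searched on both strands, and none of them contains another. The first 3 windows are promoters of genes whose exonic region changed against the promoter between the stages, and the last 2 are gene starts that lie inside an exonic region although the table marks no promoter there.

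Mocs2, chr13:114817987-114818236, plus strand: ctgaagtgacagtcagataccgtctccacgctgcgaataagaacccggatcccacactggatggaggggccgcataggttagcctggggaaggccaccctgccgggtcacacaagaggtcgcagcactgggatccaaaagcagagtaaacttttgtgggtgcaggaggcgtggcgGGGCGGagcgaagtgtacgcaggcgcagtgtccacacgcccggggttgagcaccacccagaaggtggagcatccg

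Tk2, chr8:104248559-104248808, minus strand: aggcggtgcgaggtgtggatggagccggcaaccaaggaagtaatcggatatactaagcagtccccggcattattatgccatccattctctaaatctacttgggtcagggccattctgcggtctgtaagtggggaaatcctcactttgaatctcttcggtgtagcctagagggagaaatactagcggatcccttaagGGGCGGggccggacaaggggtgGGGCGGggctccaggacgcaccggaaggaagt

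Fancl, chr11:26386834-26387083, plus strand: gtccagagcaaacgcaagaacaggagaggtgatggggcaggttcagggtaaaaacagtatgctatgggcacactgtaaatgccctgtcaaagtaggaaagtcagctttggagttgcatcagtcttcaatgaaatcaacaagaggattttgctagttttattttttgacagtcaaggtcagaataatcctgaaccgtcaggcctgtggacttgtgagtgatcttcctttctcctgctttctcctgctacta

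Egf, chr3:129725087-129725336, minus strand: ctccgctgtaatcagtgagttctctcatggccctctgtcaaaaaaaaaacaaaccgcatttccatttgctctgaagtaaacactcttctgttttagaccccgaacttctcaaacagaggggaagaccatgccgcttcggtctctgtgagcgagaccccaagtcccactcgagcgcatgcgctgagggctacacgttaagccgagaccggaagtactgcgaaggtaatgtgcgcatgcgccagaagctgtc

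Bdnf, chr2:109722671-109722920, plus strand: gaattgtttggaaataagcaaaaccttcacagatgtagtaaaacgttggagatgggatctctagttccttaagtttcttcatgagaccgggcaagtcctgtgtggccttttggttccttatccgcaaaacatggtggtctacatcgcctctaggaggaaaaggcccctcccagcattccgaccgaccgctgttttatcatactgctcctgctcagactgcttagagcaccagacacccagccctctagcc

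The Mocs2 window holds 1 GC box and 16 CG pairs, and the Tk2 window 2 GC boxes and 13 CG pairs. The Fancl, Egf and Bdnf windows hold none of the 3 motifs, with 2, 15 and 7 CG pairs. Of all 32851 RefSeq windows of this length, 32.7% hold the GC box, 33.8% the CCAAT box and 12.4% the TATAAA box. Of the 12890 windows over a region that the table calls a promoter, 61.2% hold a GC box, with a median of 17 CG pairs. Of the 66 windows over an exonic region, 24.2% hold a GC box, with a median of 8 CG pairs, against 6 over all windows. A match of letters is a description and shows no binding.

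Read depth overlapped between the stages. The libraries held from 6492996 to 12292629 counts in regions, and the exonic regions held from 249824 to 442904 of them. The median exonic region had 87 to 149 counts in a library, and at most 2 of the exonic regions had under 10 counts in any library. Because p-values rest on 3 litters per stage, they measure the spread between these litters. Among promoter regions, 23 of the 41 nephron progenitor genes that were listed for this purpose, Six2 among them, had a region labelled with their name, with a summed accessibility of 778 to 818 CPM (counts scaled to a common library size with TMM factors) at E14.5 and 725 to 986 CPM at P0. Of the markers of other kidney cells, 12 of 20 stromal, 6 of 16 endothelial and 7 of 19 ureteric genes had a labelled promoter region, and 0 of 15 immune and 0 of 14 erythroid genes did. Among the progenitor genes without one were Itga8, the selection marker, Cited1 and Meox1. Whether the table as analysed here holds every region that was called is not known, so a gene without a region, or a count of 0, does not show closed chromatin or the absence of a cell type. The summed stromal level was 292 to 348 CPM at E14.5 and 301 to 396 CPM at P0, the endothelial level 148 to 168 and 139 to 151 CPM, and the ureteric level 152 to 175 and 136 to 159 CPM. Each of these ranges overlapped between the stages. The part of other cell types in the results below was not tested.

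The exonic regions fell in 2079 genes, of which 1826 held 1 region and 253 held several. They lay on all 19 autosomes, from 71 on chromosome 17 to 258 on chromosome 1. Their median length was 1524 bp, with a range of 431 to 5919 bp. Per length, they were as open as other regions away from promoters, with a median of 8.034 CPM per kb against 7.996 for intronic, 8.07 for intergenic and 12.8 for promoter regions. Their host genes had a median length of 68.2 kb, where 2307 of the 2427 regions could be given a RefSeq gene, against 218 kb for the hosts of intronic regions. A promoter region of the same gene was present in the table for 1460 exonic regions, or 60.2%, and for 74.8% of intronic regions. An enhancer of the FANTOM set in the table's annotation was overlapped by 4.74% of exonic, 9.86% of intronic, 8.72% of intergenic and 12.0% of promoter regions. How that set was built at exons was not examined, so the lower exonic share is a description only. By RefSeq biotype, 2118 lay in protein-coding genes, 142 in long non-coding RNA genes and 45 in pseudogenes.

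Between the stages, 123 exonic regions passed an adjusted p of 0.05 in the edgeR quasi-likelihood test with Benjamini-Hochberg adjustment over all 43523 regions. At P0, 60 of them were higher and 63 lower. That is 5.07% of the exonic regions, where 4.73% of all regions passed. The higher ones made up 2.47% against 1.79% over all regions, and the lower ones 2.60% against 2.94%. The rise and the loss were of like size, with a median log2 fold change (P0 over E14.5) of 1.06 among the higher and -1.16 among the lower regions. In 81 of the 123 the change was 2-fold or more. In bulk chromatin, fewer cells with an open region and less opening in each cell cannot be told apart.

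In all 123 of these regions the P0 libraries did not overlap the E14.5 libraries. Over all exonic regions that held for 674, or 27.8%, with P0 above in 418 and below in 256, where it held for 24.2% of all regions (11.8% above and 12.4% below). An unadjusted p under 0.05 was reached by 504 exonic regions, and by 18.7% of all regions. The count of 123 rested on single litters. It was 18 without E14.5 replicate 3, 62 without E14.5 replicate 1 and 30 with P0 replicate 1 left out, and the count of higher regions rose from 60 to 110 without E14.5 replicate 2.

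**Figure D1:**
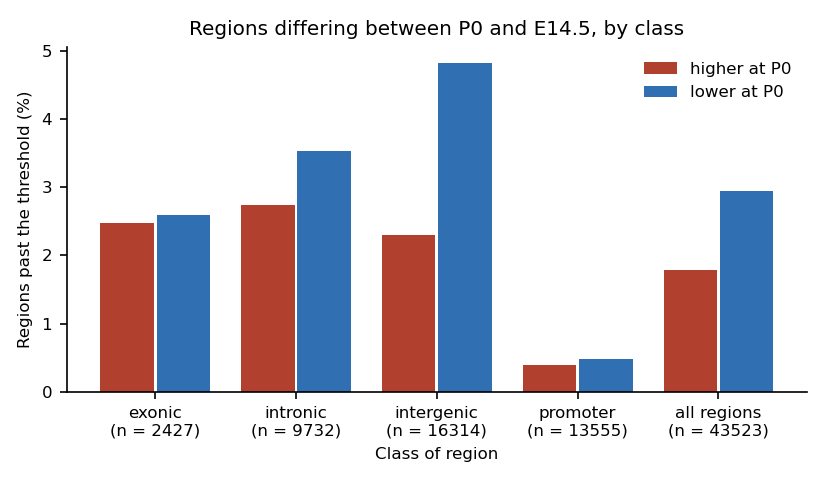
Share of regions past the edgeR threshold in each class (y axis, percent), with bars for regions higher and lower at P0 and the number of regions under each class. The exonic bars are 2.47% higher and 2.60% lower, close to each other, while in intergenic regions 2.305% were higher and 4.82% lower and in promoters 0.391% and 0.480%.

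By class, 6.28% of intronic, 7.12% of intergenic and 0.871% of promoter regions passed. The order was the same among regions of the same level, defined as the 5th to 95th percentile of the exonic regions (5.16 to 30.8 CPM). There, 5.31% of exonic, 6.47% of intronic, 7.46% of intergenic and 1.28% of promoter regions passed. The median log2 fold change of all exonic regions was 0.10, and 60.7% of them had a value above 0. The medians were 0.13 in intronic, 0.07 in intergenic and -0.11 in promoter regions, and 0.01 over all regions. The differences between classes are descriptions without a test over regions.

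Per library, the exonic regions took 3.19%, 3.62% and 3.33% of counts at E14.5 and 3.72%, 3.85% and 3.60% at P0. The lowest P0 library fell just under the highest E14.5 library. The means were 3.38% ± 0.220 (SD, n = 3) and 3.72% ± 0.122 (SD, n = 3), a difference that was not told apart from the spread between libraries (two-sided exact permutation test, p = 0.2, where 0.1 is the smallest p possible). Against intronic regions, the median log2 CPM of exonic regions was higher by 0.14 ± 0.04 (SD, n = 3) at E14.5 and by 0.12 ± 0.02 (SD, n = 3) at P0, with overlapping libraries (exact permutation test, p = 0.6). These levels are per region, and the exonic regions were longer (median 1524 bp against 1427.5 bp). Per length the medians were 8.034 and 7.996 CPM per kb. The widest 95% Wilson interval of a share, that of P0 replicate 2, was 3.83% to 3.86%, which covers counting error only.

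**Figure D2:**
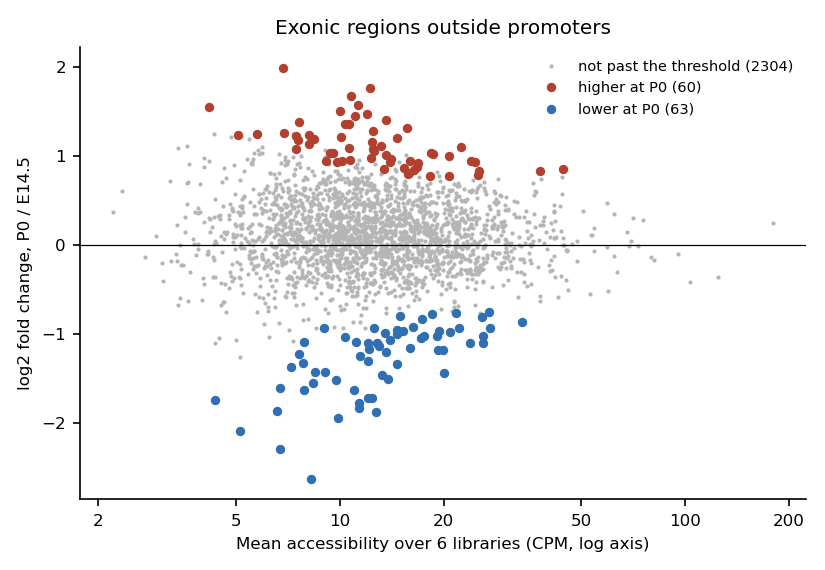
Each point is an exonic region, with its mean accessibility over the 6 libraries in CPM on a log x axis and its log2 fold change (P0 over E14.5) on the y axis. The 60 higher and 63 lower regions lie across most of the range of levels, and the lower ones reach -2.63 while the higher ones reach 1.99.

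The largest gains lay in genes of unrelated function. The region in Mocs2 (chr13:114821591-114822324, mm10), which encodes a subunit of molybdopterin synthase, held 2.85, 2.80 and 2.57 CPM in E14.5 replicates 1 to 3 and 11.5, 12.1 and 9.39 CPM in P0 replicates 1 to 3. All P0 libraries stood far above all E14.5 libraries, whose spread was small. The means were 2.74 ± 0.149 CPM and 10.98 ± 1.42 CPM (SD, n = 3 each), with a fitted rise of 3.98-fold (log2 fold change 1.99, SE 0.29, edgeR adjusted p = 0.00242). In Phf17, now called Jade1, a scaffold of a histone acetyltransferase complex, the region (chr3:41605616-41606617) held 4.98, 5.61 and 4.90 CPM at E14.5 and 17.6, 14.8 and 17.0 CPM at P0. Its P0 libraries again stood clear of the E14.5 libraries (log2 fold change 1.67, SE 0.23, edgeR adjusted p = 0.00213).

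The Armc4 region on chromosome 18, in a gene for a docking factor of dynein arms in cilia, held 7.24, 4.64 and 4.79 CPM at E14.5 and 25.7, 16.8 and 14.1 CPM at P0, and rose by 1.77 (SE 0.28, edgeR adjusted p = 0.00365). P0 replicate 1 was the highest, and the groups did not overlap. The Dock10 region (chr1:80605959-80606919), in a gene for an activator of small GTPases that shape the cytoskeleton, rose by 1.57, from 5.63 ± 1.81 to 16.9 ± 2.59 CPM (SD, n = 3 each, edgeR adjusted p = 0.0047). The other 6 of the 10 largest gains lay in Wdfy3, an adaptor of selective autophagy (1.55), Steap2, a metal reductase (1.51), 1700017N19Rik (1.47), Wars, the cytoplasmic tryptophanyl-tRNA synthetase (1.44), Olfr455, an olfactory receptor gene (1.40), and 0610025J13Rik (1.39). The Steap2 region also overlaps the gene model Gm40262, so it cannot be assigned to either gene. Of these 10 gains, 6 passed whichever library was left out, with adjusted p up to 0.0485. Steap2 (up to 0.0859) did not pass without E14.5 replicate 3 or P0 replicate 1, and Wars (0.0677) not without P0 replicate 1. Wdfy3 (up to 0.139) was lost without E14.5 replicate 1 or 3 or P0 replicate 1, and 0610025J13Rik (up to 0.106) without E14.5 replicate 1 or 3 or P0 replicate 2.

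The largest loss was in Bai3 (chr1:25420427-25421217), now called Adgrb3, an adhesion receptor known from synapses. Its region held 14.0, 13.1 and 15.6 CPM at E14.5 and 2.50, 1.97 and 2.37 CPM at P0. Every P0 library was far below every E14.5 library, and the means of 14.3 ± 1.28 and 2.28 ± 0.277 CPM (SD, n = 3 each) lay far apart (fitted fold change 6.17, log2 fold change -2.63, SE 0.28, edgeR adjusted p = 0.00109). In Hnf4g (chr3:3652703-3653854), a nuclear receptor gene of epithelia, the region held 10.6, 9.02 and 14.0 CPM at E14.5 and 1.98, 1.97 and 2.76 CPM at P0. It fell with no overlap (log2 fold change -2.29, SE 0.32, edgeR adjusted p = 0.00204).

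The region in Rfx6 (chr10:51720489-51721918), a transcription factor gene of endocrine pancreas and gut, held 20.1 ± 1.95 CPM at E14.5 and 5.34 ± 1.67 CPM at P0 (SD, n = 3 each; fell by 1.88 on the log2 scale, edgeR adjusted p = 0.0019). It was placed there by position, since the table gives no name for its gene identifier. In Fancl (chr11:26421462-26422594), the ubiquitin ligase of the Fanconi anaemia pathway of DNA repair, the region held 15.1, 17.9 and 20.7 CPM at E14.5 and 3.23, 4.69 and 6.87 CPM at P0. The P0 libraries were all lower (log2 fold change -1.84, SE 0.28, edgeR adjusted p = 0.0032). Tasp1, a protease that cleaves histone methyltransferases of the MLL family (-1.95), Frk, a tyrosine kinase of the Src family (-1.75), and Ninl, a ninein-like protein of the centrosome (-1.72), followed. Another 2 large losses carry only identifiers, ENSMUSG00000095649 on chromosome 7 (-2.09) and ENSMUSG00000098509 on chromosome 1 (-1.78). Of these 9 losses, 7 passed whichever library was left out, with adjusted p up to 0.0445. ENSMUSG00000098509 (0.0621) was lost without E14.5 replicate 3, and Frk (up to 0.214) without E14.5 replicate 1 or 3 or P0 replicate 1 or 3.

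**Figure D3:**
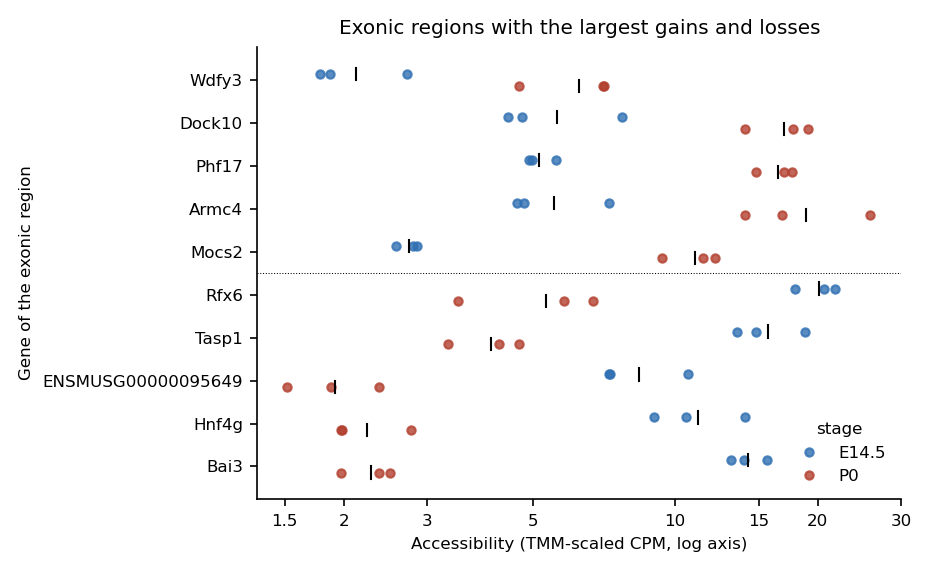
Accessibility of the 5 exonic regions with the largest gains (above the dotted line) and the 5 with the largest losses (below it), in CPM on a log x axis, with the host gene on the y axis. Each point is 1 library and each tick the mean of 3, and the 2 stages do not overlap in any of these regions, as their choice required.

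Other regions past the threshold were picked with their values known, and they stand for no list that was counted or tested. The region in Enpep (chr3:129321450-129322076), the aminopeptidase A of the brush border, held 4.15, 3.77 and 4.32 CPM at E14.5 and 12.3, 8.47 and 8.53 CPM at P0, so that the stages stood apart (log2 fold change 1.26, SE 0.29, edgeR adjusted p = 0.022). In Myo7b, a myosin of the brush border, the region on chromosome 18 rose by 1.03 (SE 0.26, edgeR adjusted p = 0.0381). Aass, an enzyme of lysine breakdown, held 12.1 ± 4.46 CPM at E14.5 and 24.8 ± 2.90 CPM at P0 (SD, n = 3 each, log2 fold change 1.03, edgeR adjusted p = 0.0282). In Uox, the urate oxidase gene, the level rose by 0.94, from 16.4 ± 2.18 to 31.6 ± 6.94 CPM (SD, n = 3 each, edgeR adjusted p = 0.0203). These 4 calls were each lost without E14.5 replicate 1, E14.5 replicate 3 or P0 replicate 1, and Myo7b, Aass and Uox also without P0 replicate 2, with adjusted p up to 0.203. Among the losses, 2 were picked in the same way. In Mgam, an enzyme of the brush border that digests starch, the region held 27.5 ± 5.08 CPM at E14.5 and 12.3 ± 4.21 CPM at P0 (SD, n = 3 each; it fell by 1.18 on the log2 scale, edgeR adjusted p = 0.0137). In Bbox1, an enzyme of carnitine synthesis, the means were 23.5 ± 2.50 and 11.5 ± 1.59 CPM (SD, n = 3 each, log2 difference -1.03, edgeR adjusted p = 0.0118). Both calls were lost without E14.5 replicate 3 or P0 replicate 1 (adjusted p up to 0.11).

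Another 4 regions that rose, and 1 that fell, were picked in the same way. Yap1, the transcriptional effector of the Hippo pathway, held 14.0, 14.63 and 11.8 CPM at E14.5 and 27.0, 19.8 and 22.2 CPM at P0 in its region (chr9:7951497-7954030, log2 fold change 0.77, SE 0.21, edgeR adjusted p = 0.0441). All P0 libraries were higher. Cdh2 (N-cadherin) rose by 0.83, from 27.3 ± 1.73 to 48.6 ± 6.01 CPM (SD, n = 3 each, edgeR adjusted p = 0.0218). Cdc45, a subunit of the replicative helicase, held 12.1, 16.7 and 12.5 CPM at E14.5 and 29.4, 26.8 and 26.5 CPM at P0 (chr16:18781126-18783096, log2 fold change 0.99, SE 0.20, edgeR adjusted p = 0.012). Its P0 libraries were all higher and close to each other. The Angpt2 region (an angiopoietin, log2 fold change 0.77, edgeR adjusted p = 0.0498) also overlaps Mcph1, within which Angpt2 lies. None of these 4 calls held without E14.5 replicate 1, E14.5 replicate 3 or P0 replicate 1 (adjusted p up to 0.285). Yap1 and Angpt2 were also lost without P0 replicate 3 and with limma-voom (adjusted p = 0.0525 and 0.0564), and Angpt2 without E14.5 replicate 2 and with the RLE scaling of DESeq2 in edgeR (adjusted p = 0.0514). In Edil3, a matrix protein bound by integrins, the region held 16.5 ± 1.79 CPM at E14.5 and 7.73 ± 2.45 CPM at P0 (SD, n = 3 each; it fell by 1.11 on the log2 scale, edgeR adjusted p = 0.0235, and up to 0.139 without E14.5 replicate 3 or P0 replicate 1, where it was lost).

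The next 7 regions lie in genes best known from neurons. They too were named after their values were seen, with no count of how many such genes were tested. In Grm3, a metabotropic glutamate receptor, the region (chr5:9485240-9487070) held 17.7, 18.04 and 19.6 CPM at E14.5 and 5.73, 6.36 and 4.82 CPM at P0. The stages stood well apart (log2 fold change -1.72, SE 0.23, edgeR adjusted p = 0.00183). Slc17a6, a vesicular glutamate transporter, fell by 1.63 (SE 0.33, edgeR adjusted p = 0.0119), Gria1, a subunit of AMPA receptors, by 1.05 (SE 0.23, adjusted p = 0.0176), and Cacng8, an auxiliary subunit of those receptors, by 0.93 (SE 0.23, adjusted p = 0.0317). Dner, a Notch-related surface protein of neurons, fell by 0.76 (SE 0.19, edgeR adjusted p = 0.0333). The opposite direction also occurred, in Cacna2d1, a calcium channel subunit (1.20, edgeR adjusted p = 0.0318), and Lrrn1, a neuronal leucine-rich repeat protein (0.93, adjusted p = 0.0465). The Grm3 call held whichever library was left out (adjusted p up to 0.0238). All the others were lost without E14.5 replicate 3 or P0 replicate 1, Gria1, Dner, Cacna2d1 and Lrrn1 also without E14.5 replicate 1, Cacng8 without P0 replicate 3, Dner without P0 replicate 2 or 3, and Lrrn1 without E14.5 replicate 2 or P0 replicate 2 (adjusted p up to 0.225). Lrrn1 was also lost with limma-voom (adjusted p = 0.0503) and Dner with total-count scaling (adjusted p = 0.0552).

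Crb1, a gene of apical cell polarity, lost accessibility in its region (chr1:139234193-139236267) by a log2 fold change of -1.44, from 29.5 ± 5.51 to 10.7 ± 3.88 CPM (SD, n = 3 each, edgeR adjusted p = 0.00557, and 0.053 without E14.5 replicate 3). The dynein heavy chain genes Dnah7a and Dnahc7b, which are related copies on chromosome 1, each held a lower region. The Dnah7a region went from 20.4 ± 1.71 to 7.24 ± 1.48 CPM and the Dnahc7b region from 17.2 ± 3.10 to 6.96 ± 0.922 CPM (SD, n = 3 each, edgeR adjusted p = 0.00294 and 0.00676, the second 0.0678 without E14.5 replicate 3). How the authors placed reads that match both copies is not given in the sources used here, so the pair may not be independent. Crb1 and the pair were chosen after their values were seen.

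Genes of nephron progenitors and of early nephron differentiation held few exonic regions. Over all regions, 4.73% passed in edgeR, 6.38% in DESeq2 and 4.38% in limma-voom, and 18.7% had an unadjusted p under 0.05, and the counts of the lists are to be read against these shares. At 3 and 10 regions, a count of 0 calls is near what those shares give. Of the progenitor list, 3 regions were tested, in Robo2, Tmem100 and Wt1, and 0 passed in edgeR, with 1 at an unadjusted p under 0.05 and 0 in DESeq2 and in limma-voom. Their median log2 fold change was 0.29, against 0.01 over all regions. Robo2, a receptor for Slit ligands that limits Gdnf expression in the kidney, held 8.78, 8.41 and 9.11 CPM at E14.5 and 9.68, 13.5 and 17.4 CPM at P0 (log2 fold change 0.63, SE 0.25, edgeR adjusted p = 0.187). All P0 libraries were above the E14.5 libraries, but they spread widely. The differentiation list held 10 regions in 9 genes, Bmp2, Cubn, Hey1, Lrp2, Magi2, Notch1, Ptpro, Synpo and Umod, with log2 fold changes of -0.05 to 0.62 and a median of 0.15. In edgeR 0 passed, with 1 at an unadjusted p under 0.05 and 0 in DESeq2 and limma-voom, while 2 of them, in Ptpro and Umod, changed against their promoters in limma. Ptpro, a phosphatase of podocytes, had the lowest p, with 7.63 ± 1.94 CPM at E14.5 and 11.7 ± 0.253 CPM at P0 (SD, n = 3 each, edgeR adjusted p = 0.2). No exonic region lay in a gene of the Hox clusters or of the developmental timing list, which holds Lin28b and its relatives.

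Markers of other cell types were as sparse. The stromal list held 3 regions (median log2 fold change 0.20), the endothelial list 4 (0.25), the ureteric list 4 (-0.23), the immune list 4 (0.25) and the erythroid list 2 (-0.12). In edgeR, DESeq2 and limma-voom 0 of these 17 passed, and at an unadjusted p under 0.05 there was 1 stromal and 1 ureteric region, against the same shares over all regions (4.73% in edgeR and 18.7% unadjusted). The one stromal region was in Acta2, smooth muscle actin, with 10.6 ± 2.38 CPM at E14.5 and 16.5 ± 2.67 CPM at P0 (SD, n = 3 each, edgeR adjusted p = 0.151), and the ureteric one in Tfap2a, with 23.7 ± 4.15 and 17.4 ± 2.10 CPM (SD, n = 3 each, edgeR adjusted p = 0.265). The lowest p of the remaining lists were in Plvap (endothelial, log2 fold change -0.46), Mrc1 (immune, 0.32) and Klf1 (erythroid, -0.32), with edgeR adjusted p of 0.373, 0.448 and 0.48.

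Genes of axon guidance, whose ligands and receptors steer growing cells, held 23 exonic regions, of which 1 rose and 1 fell, or 8.70% where 4.73% of all regions passed. An unadjusted p under 0.05 was reached by 6 (18.7% over all regions), and DESeq2 called 3 and limma-voom 2. The 2 edgeR calls lay in class 3 semaphorins, secreted guidance cues. The Sema3g region (chr14:31226703-31228378) held 9.37, 9.55 and 8.17 CPM at E14.5 and 22.2, 15.3 and 17.2 CPM at P0, with no overlap (log2 fold change 1.01, SE 0.23, edgeR adjusted p = 0.0196). In Sema3c (chr5:17714589-17717089) the region went the other way, with 14.59, 19.1 and 23.4 CPM at E14.5 and 8.23, 9.69 and 7.03 CPM at P0 (log2 fold change -1.20, SE 0.24, edgeR adjusted p = 0.0118). The median of the list was 0.28. Both calls were lost without E14.5 replicate 3 or P0 replicate 1, and that of Sema3g without E14.5 replicate 1, with adjusted p up to 0.162.

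Genes of cell adhesion at synapses held 33 exonic regions, of which 0 rose and 2 fell, in Bai3 (above) and Cntnap5a, a contactin-associated protein. That is 6.06%, close to the 4.73% of all regions. The Cntnap5a region (chr1:116577704-116579228) held 26.9, 36.0 and 44.6 CPM at E14.5 and 17.6, 18.9 and 19.6 CPM at P0, and all P0 libraries were lower (log2 fold change -0.94, SE 0.21, edgeR adjusted p = 0.0205, and up to 0.154 without E14.5 replicate 3 or P0 replicate 1, where it was lost). The list's median was 0.05, and 7 of its regions, or 21.2%, had an unadjusted p under 0.05, where 18.7% of all regions did. DESeq2 and limma-voom also called 2.

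Collagens, laminins and other matrix genes held 36 exonic regions, of which 2 rose and 1 fell (8.33%, against 4.73% of all regions), with a median log2 fold change of 0.06. The list was drawn by the start of the symbol and so also took Col4a3bp, which encodes a ceramide transfer protein and no matrix protein. Without it there were 35 regions, the same 3 calls and a median of 0.04, an alternative added after seeing the data. An unadjusted p under 0.05 was reached by 10 of the 36 regions, or 27.8% where 18.7% of all regions reached it. DESeq2 called 5, against 6.38% of all regions, and limma-voom 3, against 4.38%. The risers were in Col27a1, a fibrillar collagen, by 1.09, from 6.74 ± 1.32 to 14.49 ± 3.74 CPM (SD, n = 3 each, edgeR adjusted p = 0.0298), and Fras1, a protein of the basement membrane under epithelia that kidney development needs, by 0.98, from 8.29 ± 1.89 to 16.4 ± 3.25 CPM (SD, n = 3 each, edgeR adjusted p = 0.0373). The one that fell was in Col24a1, another fibrillar collagen, with a log2 fold change of -0.94, from 11.9 ± 0.871 to 6.16 ± 1.11 CPM (SD, n = 3 each, edgeR adjusted p = 0.047). The stages did not overlap in any of the 3. Each call was lost without E14.5 replicate 3, P0 replicate 1 or P0 replicate 2, those of Col27a1 and Col24a1 also without E14.5 replicate 1, and those of Fras1 and Col24a1 without E14.5 replicate 2, with adjusted p up to 0.226. Col24a1 was also lost with total-count scaling (adjusted p = 0.0682) and with limma-voom (0.0529).

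Zinc finger genes held 40 exonic regions, the most of any list, and 0 passed in edgeR or limma-voom and 1 in DESeq2, with 4 (10.0%) at an unadjusted p under 0.05 and a median of 0.08. The shares over all regions, here and for the next 2 lists, were 4.73% in edgeR, 4.38% in limma-voom, 6.38% in DESeq2 and 18.7% unadjusted. The lowest p was in the gene listed as 5830428H23Rik, whose RefSeq match is Zfp950 and whose region also overlaps Grk5, with 14.8 ± 0.809 CPM at E14.5 and 8.06 ± 1.87 CPM at P0 (SD, n = 3 each, edgeR adjusted p = 0.0534). Wnt, BMP and FGF pathway genes held 16 regions, of which 0 passed in edgeR, DESeq2 or limma-voom, and 0 at an unadjusted p under 0.05. Their log2 fold changes lay between -0.46, in Bmper (edgeR adjusted p = 0.274), and 0.52. Chromatin regulators held 6 regions in Chd4, Chd7, Hdac2, Hdac9 and Kdm6b, of which 0 passed in the 3 tools and 1 had an unadjusted p under 0.05. That was in Hdac9, a class IIa histone deacetylase, with 17.4, 33.1 and 19.9 CPM at E14.5 and 33.6, 35.6 and 35.1 CPM at P0 (log2 fold change 0.56, edgeR adjusted p = 0.2). E14.5 replicate 2 was close to the P0 libraries there, although the groups did not overlap.

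An exonic region need not follow the promoter of its gene. For the 1460 regions with a promoter region of the same gene, the log2 ratio of region to summed promoter counts was compared between the stages with limma, adjusted over 8741 exonic and intronic regions. In 78 exonic regions, or 5.34%, the ratio changed, in 44 upward and in 34 downward, where 5.30% of all tested regions passed (2.93% upward and 2.37% downward). Of these 78, 53 were also among the 123 regions past the edgeR threshold. The median change of the ratio was 0.19, with medians of 0.14 for the exonic regions and -0.07 for their promoters. The count was 0 without E14.5 replicate 3, 4 without P0 replicate 1, 11 without E14.5 replicate 1, and it rose to 148 with P0 replicate 3 left out.

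The largest upward changes were in Mocs2 (2.07, SE 0.34, limma adjusted p = 0.00757), Tk2, Wdfy3 and Phf17. Relative to the promoter, whose sequence is given above, the Mocs2 region stood at log2 ratios of -3.40, -3.72 and -3.65 at E14.5 and -1.29, -1.52 and -1.74 at P0. The promoter itself moved by -0.12, so that nearly the whole change was in the exonic region. In Tk2, the mitochondrial thymidine kinase, the log2 ratio went from -1.25, -2.63 and -2.28 to -0.35, 0.02 and -0.09, a change of 1.91 (SE 0.34, limma adjusted p = 0.00757). Here the exonic region (chr8:104226811-104228257) rose by 1.43 on this scale and the promoter fell by 0.48. The changes were 1.85 in Wdfy3 and 1.72 in Phf17.

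The largest downward changes were in Bai3 (-2.43), Hnf4g (-2.03), Galntl6 (-1.93), Rfx6 (-1.92) and Fancl (-1.86). Of these, 4 had a promoter that moved by -0.23 to -0.02. In Galntl6, a gene of the mucin-type glycosyltransferase family, the promoter rose by 1.00 while the exonic region (chr8:57958351-57960115) fell by 0.93 on this scale. The log2 ratios there were -0.05, 0.66 and 0.84 at E14.5 and -1.27, -1.39 and -1.66 at P0 (SE 0.28, limma adjusted p = 0.0056), with no overlap. The region was placed in Galntl6 by position, since its identifier ENSMUSG00000096914 has no name in the table. In edgeR it held 19.3 ± 3.78 and 10.0 ± 1.42 CPM (SD, n = 3 each, adjusted p = 0.0271), a call that was lost in turn without each library but E14.5 replicate 1. Without E14.5 replicate 3, the limma adjusted p of these 5 ratios and of the 4 upward ones lay between 0.093 and 0.166, so none of the 9 passed. Without P0 replicate 1, the calls of Mocs2, Phf17, Wdfy3, Hnf4g and Fancl were lost too, and those of Wdfy3 and Hnf4g also without E14.5 replicate 1. The direction was the same in all 9 with each library left out.

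On the gene lists, 2 of the 8 differentiation regions with a promoter region changed against it, both upward, where 5.30% of all tested regions changed and 2.93% upward. In Umod, the uromodulin gene of the loop of Henle, the log2 ratio went from 2.11, 1.73 and 0.95 to 2.39, 3.11 and 2.84, with no overlap (change 1.19, SE 0.29, limma adjusted p = 0.0317). The exonic region moved by 0.13 there and the promoter by -1.06. In Ptpro the ratio changed by 1.07 (SE 0.29, limma adjusted p = 0.0444), with 0.64 in the exonic region and -0.43 in the promoter. The Umod call was lost without E14.5 replicate 1 or 3 or P0 replicate 1 or 2 (adjusted p up to 0.225), and that of Ptpro when any library but P0 replicate 2 was left out (up to 0.157). In Sema3c the ratio fell by 1.31 (SE 0.29, limma adjusted p = 0.0197), a call lost without E14.5 replicate 1 or 3 or P0 replicate 1 (up to 0.177).

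**Figure D4:**
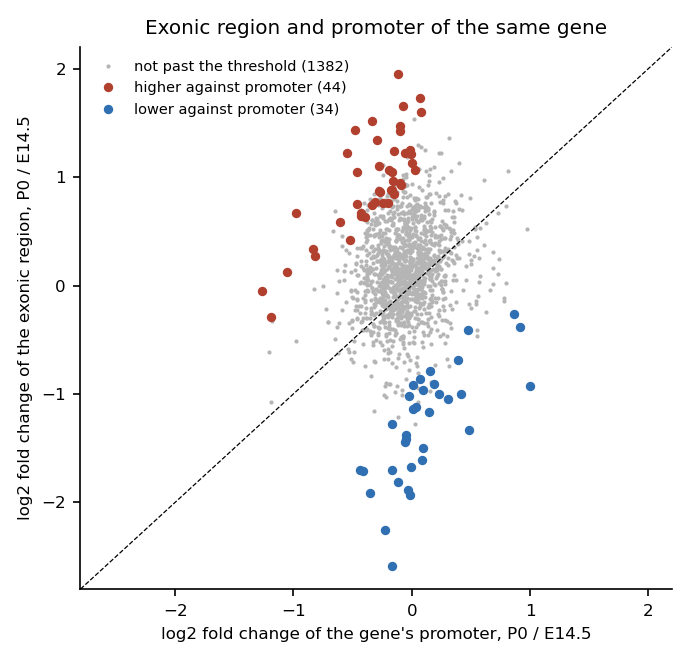
Each point is an exonic region whose gene also has a promoter region, with the log2 fold change (P0 over E14.5) of the promoter on the x axis and of the exonic region on the y axis, and the dashed line marks equal change. The 44 regions that were higher against their promoter and the 34 that were lower lie away from the line, mostly at promoter values near 0, and Galntl6 lies at 1.00 on the x axis and -0.93 on the y axis.

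Regions at genes with a promoter region in the table and regions at genes without one were also set side by side. Of the 1460 with one, 81 or 5.55% passed in edgeR (42 higher, 39 lower), and of the 967 without, 42 or 4.34% passed (18 higher, 24 lower), where 4.73% of all regions did. The first kind had a lower median level per region in every library. Its regions were also shorter, with a median of 1465 bp against 1599 bp, and per length the medians were 7.98 and 8.10 CPM per kb. The difference in median log2 CPM was -0.15, -0.12 and -0.19 at E14.5 and -0.04, -0.10 and -0.08 at P0. Each P0 library was closer to 0 than each E14.5 library, and the means of -0.15 ± 0.03 and -0.07 ± 0.03 (SD, n = 3 each) gave the smallest p that 3 against 3 can reach (two-sided exact permutation test, p = 0.1). This comparison was chosen after seeing the data.

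Few genes held more than 1 region past the threshold. Of the 253 genes with several exonic regions, 40 had at least 1 past the edgeR threshold, and only in Ptprq did 2 pass, both lower at P0. Other regions of named genes did not always follow, by log2 fold change. The second exonic region stood at 0.14 in Crb1, 0.47 in Dner, 0.61 in Mgam and 0.06 in Bbox1, where the called region fell. It stood at -0.01 in Yap1 and -0.13 in Cacna2d1, where the called region rose. In Dock10, Col27a1 and Edil3 it had the sign of the call (0.60, 0.41 and -0.07). In Wdfy3, Sema3c, Col24a1, Fras1, Dnah7a and Dnahc7b, which hold more regions, signs were mixed. In 119 of the 253 genes, and in 102 of the 189 with a pair of regions, all fitted values lay on the same side of 0, most of them not past the threshold, where 60.7% of all exonic regions had a value above 0. Pkhd1 and Gpr98 held the most, with 7 each. Pkhd1 encodes fibrocystin, the protein affected in recessive polycystic kidney disease. In Pkhd1, a region named after its value was seen (chr1:20568688-20570728) held 10.9, 14.4 and 11.4 CPM at E14.5 and 26.2, 28.4 and 20.4 CPM at P0, with no overlap (log2 fold change 1.02, SE 0.21, edgeR adjusted p = 0.0134, and up to 0.0978 without E14.5 replicate 1 or 3 or P0 replicate 1, where it was lost). The other 6 Pkhd1 regions had log2 fold changes of -0.11 to 0.26. In Gpr98, now called Adgrv1, an adhesion receptor of hair cells, all 7 lay between -0.09 and 0.32, and 2 of these overlap each other.

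Ptprq, a receptor phosphatase, held 5 exonic regions over a stretch that also carries the gene model Gm36177. The region at chr10:107542235-107543565 held 18.1, 19.4 and 19.2 CPM at E14.5 and 9.68, 9.99 and 7.50 CPM at P0 (log2 fold change -1.07, SE 0.22, edgeR adjusted p = 0.0121). The region at chr10:107579339-107581343 held 18.3, 13.1 and 21.1 CPM at E14.5 and 8.02, 8.17 and 8.21 CPM at P0 (log2 fold change -1.10, SE 0.24, edgeR adjusted p = 0.0165). In both, all P0 libraries were lower. The other 3 did not pass, with log2 fold changes of -1.04 (edgeR adjusted p = 0.0896), 0.04 (0.955) and 0.95 (0.0679). Both calls were lost without E14.5 replicate 3 or P0 replicate 1, and the second also without E14.5 replicate 1, with adjusted p up to 0.127.

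**Figure D5:**
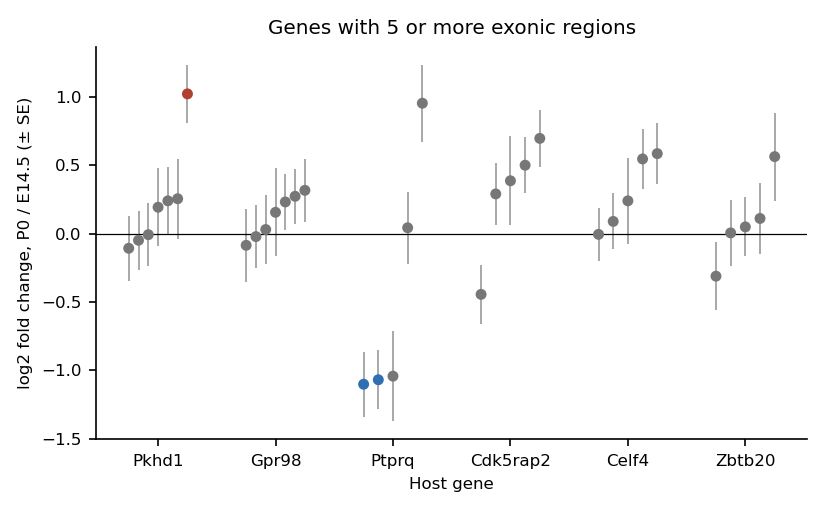
log2 fold change (P0 over E14.5, y axis, with the SE as a bar) of every exonic region in the 6 genes that hold 5 or more, 1 point per region in order of its value. The coloured points passed the edgeR threshold, 1 in Pkhd1 (higher) and 2 in Ptprq (lower), and the 5 Ptprq regions reach from -1.10 to 0.95.

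The most open exonic regions per length were not among those that passed. Sfi1, a centrosomal protein, led with 99.7 CPM per kb, followed by Clec11a, a secreted lectin that acts as a growth factor (76.1), Ppfibp2, a liprin (48.2), 3300002I08Rik (47.6) and 2610005L07Rik (47.2). For Sfi1 the libraries held 193, 107 and 194 CPM at E14.5 and 208, 260 and 117 CPM at P0. They overlapped widely, and 1 library at each stage stood far from its other 2. Whether reads from similar sequence elsewhere add to the counts of these regions was not tested. In 3300002I08Rik, 69.2, 68.8 and 73.2 CPM at E14.5 stood above 49.9, 46.3 and 51.0 CPM at P0 without overlap, but the edgeR adjusted p was 0.133. The other 4 had edgeR adjusted p between 0.392 and 0.729.

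Of 2346 exonic regions on chromosomes with a table of gene starts, 55 overlapped a RefSeq gene start, taken as 250 bases before to 50 after it, although the table lists no promoter for them. In edgeR 0 of these passed, with 5 at an unadjusted p under 0.05, 1 call in DESeq2 and 0 in limma-voom, while 118 of the other 2291 passed in edgeR (5.15%). The Egf region (chr3:129724621-129725739), over the start whose window is shown above, held 35.2, 31.9 and 36.2 CPM at E14.5 and 35.5, 36.6 and 39.3 CPM at P0 (edgeR adjusted p = 0.805). Egf encodes the epidermal growth factor, made by the distal tubule of the mature kidney, and the libraries of the 2 stages overlapped. At the Bdnf start, where the gene encodes a neurotrophin with many alternative promoters, the region held 19.8, 15.9 and 23.0 CPM at E14.5 and 15.7, 9.84 and 10.6 CPM at P0. These groups met without overlap, and the edgeR adjusted p was 0.118. Egf and Bdnf were chosen after their values were seen. Of the 12 regions that overlap an element of the VISTA set, 0 passed in edgeR, 3 had an unadjusted p under 0.05, and 1 was called in DESeq2 and 0 in limma-voom, and of the 115 at FANTOM enhancers 2 passed in edgeR and limma-voom and 6 in DESeq2. The edgeR calls are 1.74% of these 115, against 5.07% of the exonic and 4.73% of all regions. An unadjusted p under 0.05 was reached by 22 of the 115, or 19.1%, near the 18.7% of all regions. DESeq2 called 6.38% of all regions and limma-voom 4.38%. The counts at gene starts and VISTA elements are to be read against the same shares.

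The host genes of lower regions were longer, with a median of 169 kb over the 57 of 63 regions with a RefSeq gene, against 62.4 kb for 56 of the 60 higher ones and 67.0 kb for the rest. By the motif matches listed in the table, 21.3% of the exonic regions held a forkhead motif, against 21.0% of all regions. Among the lower regions it was 33.3% (21 of 63), among the higher ones 15.0% (9 of 60), and among those that did not pass 21.1%. The Six2 motif was listed in 2.88% of the exonic regions and 2.65% of all regions, in 1 lower and 0 higher regions. E2F motifs were listed in 7.83% of exonic, 5.71% of intronic and 33.7% of promoter regions. These shares are descriptions, and the motif set and its score limit are not given in the sources used here.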

How the data were processed

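ATAC-seq counts were compared between 3 E14.5 and 3 P0 libraries. The authors deposited whole-number counts per region in each library, together with their own comparison (log2 fold change and mean log2 level, a score, a p-value and an adjusted p-value). Its model, the region caller and the counting rule are not given in the sources used here. The build is mm10, per the submitters' processing notes. The promoter, exon and motif columns are the authors' annotation in the deposited table, per the file headers.

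Of 45489 rows, 1966 repeated a region, so that 43523 remained. The test was that of edgeR 4.0.16 under R 4.3.3 (TMM scaling, filterByExpr, which removed 0 regions, quasi-likelihood F test, stage as the only term), with Benjamini-Hochberg adjustment over all regions and a threshold of 0.05. The SE is the size of the log2 fold change divided by the square root of F. Ratios to promoters were tested with limma 3.58.1 on log2 CPM with a prior count of 1. Values per library were compared by two-sided exact permutation tests, with scipy 1.17.1. On simulated counts of 43523 regions, the edgeR fit called 63 of 200 regions changed 2-fold and 9 unchanged ones. The ratio test called 3 of 43 regions changed 2-fold there, so both tests missed most changes of that size in the simulation.

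The exonic regions and the gene lists were chosen with earlier results of these data known. Named regions were the 10 largest gains and the 10 largest losses past the threshold whose stages did not overlap, the 5 most open per kb, list members past the threshold (or, where none passed, that with the lowest p), the 5 largest changes in each direction against the promoter, and genes with 2 or more regions past the threshold. Others are named as chosen after their values were seen, and items that this rule also takes are not reported here. Of the exonic regions, 2049 matched a RefSeq gene (GRCm38.p6) by name and position, 258 were given the only gene at their position, and 244 overlap more than 1 gene. A further 13 overlap the exonic region before them. Coordinates are as deposited. Replicate numbers come from the labels. Same-numbered libraries come from separate litters, so the numbers were not used as pairs. Alternatives were other scalings, filters and tools (DESeq2 1.42.0, limma-voom), each library left out, and a replicate block. Unmatched columns of sample values numbered 0.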

Additional observations from a re-analysis of the deposited data

How the results depend on the processing

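The number of exonic regions past the threshold was 122 to 129 under other scalings, filters and a fit on autosomes alone, 114 with limma-voom and 165 with DESeq2, where 92 were higher at P0. At an adjusted p of 0.1 it was 215, of which 128 were higher. With total-count scaling 58.2% of the calls were higher, against 48.8%. Leaving out each library gave 18 to 171 calls, with 7 to 110 higher and 11 to 61 lower, and 0 to 148 exonic regions that changed against their promoter (78 with all libraries). The ratio gave 79 calls with only the most counted promoter region and 80 with a prior count of 0.25. With a replicate block the counts were 105 past the threshold, 49 higher and 56 lower, and 75 for the ratio. The numbers do not show a pairing: the deviations of same-numbered libraries correlated at 0.067, -0.14 and 0.077, and only E14.5 replicate 3 correlated best with its own number. Of the 50 named regions past the threshold, 16 passed in all 11 settings, 33 were lost without E14.5 replicate 3, 30 without P0 replicate 1, 21 without E14.5 replicate 1 and 8 with the replicate block, among them Wdfy3, Frk, Galntl6, Col24a1, Lrrn1, Angpt2 and Yap1. The log2 fold change of Sfi1, which was not called, turned below 0 with either second replicate left out, to -0.0064 (E14.5) and -0.022 (P0), and was up to 0.49 with the others left out. The cause of these shifts was not tested. The median log2 fold change of the exonic regions was above 0 in every setting run, from 0.06 to 0.16, while that of all regions lay between -0.01 and 0.07. Under the settings run for them (each library left out, no top 10 regions, a count minimum), the differences per library between the stages kept their direction. With 3 litters per stage no value per library can reach a p under 0.1, and whether duplicate reads were removed is not given in the sources used here.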

Other observations

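The exonic regions in the authors' deposited table were marked as opening in 101 cases, closing in 52 and stable in 2274, and 38 of the 2427 had an adjusted p under 0.05 there. All 60 regions that were higher at P0 in edgeR were among the 101, and 48 of the 63 lower ones were among the 52, with the other 15 marked as stable. The marks had a wider limit than the 0.05 used in edgeR here. Their adjusted p reached 0.0989 among the opening and 0.0978 among the closing regions. Both comparisons also rest on the same counts, so this overlap is no independent support.

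The table also lists target genes for 18925 regions. Of 183214 listed targets with a place in RefSeq, 998 (0.545%) lay on the chromosome of their region, and in 0 regions was the host gene among the targets. These columns were therefore read only as pairs of identifier and name.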
